A study of Mus musculus with 7 samples.

Results

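Homeostatic microglia genes are the transcripts that resident microglia of the uninjured brain and spinal cord hold at high levels, and most of them are largely absent from the monocyte-derived macrophages that enter the cord after injury. The genes followed here were P2ry12, Tmem119, Cx3cr1, Sall1, Siglech, Csf1r, Fcrls, Olfml3 and Gpr34. They were chosen by symbol, and all 9 were found among the 21965 genes of the count table. Their levels were compared between mice labelled Bmal1-/- and wild-type (WT) mice on day 3 post-injury (dpi 3).

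Total RNA came from a 5 mm segment around the epicenter of a moderate T9 contusion (spinal cord injury, SCI) of 50 kdyn force and 400 to 600 μm displacement, made in every mouse of both groups, so no uninjured cord was analysed here. Libraries were sequenced from 3 mice labelled Bmal1-/- (Arntl knockout, B6.129-Arntltm1Bra/J on C57BL/6, 2 females and 1 male) and 4 WT C57BL/6 mice (2 females and 2 males), with 1 mouse per library. Per the study's methods the mice were 8 to 10 weeks old, tissue was taken at ZT 3 to 5 after perfusion with buffered saline, and the WT mice were purchased except for 1 littermate. The knockout was germline and not restricted to microglia, and the knockout mice were bred from heterozygous crosses while most WT mice were not.

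Microglia are the resident macrophages of the central nervous system, and they depend on signalling through the CSF1 receptor, which binds CSF1 and IL34, and on TGF-β for their mature identity. In the healthy cord they survey their surroundings with receptors for nucleotides and for the neuronal chemokine fractalkine. After injury they lower many of these surveillance genes and become hard to tell from incoming macrophages, which is why these genes serve as a readout of the resident, resting state. BMAL1, the protein made from Arntl, pairs with CLOCK or NPAS2 and binds E-boxes, short DNA elements whose canonical form is CACGTG.

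The E-box was therefore looked for in the promoters, from RefSeq windows of GRCm38.p6 that run from 250 bases before to 50 bases after a gene's start. Windows were at hand for 6 of the 9 genes (P2ry12, Cx3cr1, Sall1, Siglech, Fcrls and Olfml3), 8 windows in all since Sall1 has several starts. The letters CACGTG read the same on both strands, and were found in 2 of the 8 windows, those of P2ry12 and Siglech, against 7.15% of all 32851 windows. The 250 bases before both starts are shown, 5′ to 3′ on the strand of the gene, with the E-box in capitals. The P2ry12 stretch is chr3:59262986-59263235 on the minus strand, and its E-box begins 228 bases before the start. The Siglech stretch is chr7:55767934-55768183 on the plus strand, and its E-box begins 56 bases before the start.
P2ry12: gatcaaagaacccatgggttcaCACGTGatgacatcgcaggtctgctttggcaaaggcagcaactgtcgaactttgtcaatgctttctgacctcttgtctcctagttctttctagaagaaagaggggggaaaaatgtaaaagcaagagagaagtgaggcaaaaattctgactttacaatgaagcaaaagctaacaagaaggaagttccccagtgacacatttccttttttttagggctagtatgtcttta
Siglech: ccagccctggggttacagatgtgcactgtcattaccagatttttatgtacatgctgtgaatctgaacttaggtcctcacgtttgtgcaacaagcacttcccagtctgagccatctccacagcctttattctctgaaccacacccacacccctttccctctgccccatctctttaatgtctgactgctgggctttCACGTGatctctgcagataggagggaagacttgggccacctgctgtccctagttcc
Other letters searched on both strands were AGGTCA (the binding letters of the clock receptors ROR and REV-ERB), GAGGAAGT (PU.1) and TGACTCA (AP-1), and none of them overlaps the E-box. AGGTCA was in 1 of the 8 windows, that of P2ry12, 163 bases before the start on the opposite strand, against 16.3% of all windows. GAGGAAGT and TGACTCA were in 0 of the 8, against 3.2% and 5.2% of all windows. A match describes letters in a window and does not show that a factor binds there. The study's own staining of sham and injured cord, done earlier than dpi 3, did not detect BMAL1 in microglia or macrophages.

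Libraries held 38529644 to 44096737 counts, and all 9 genes passed the filter on low counts that left 15743 genes to be tested. The targeted gene, Arntl, was counted higher in the libraries labelled Bmal1-/- than in WT, at 22.5 to 24.2 against 11.9 to 15.3 CPM (counts scaled by library size and TMM factors, n = 3 and 4, log2 fold change 0.77, standard error 0.10, adjusted p = 0.0155), which goes against what the label alone would give. A count over the whole gene does not separate deleted exons from the rest of the transcript, and were the labels exchanged, every fold change here would change sign. Nr1d1 and Dbp, clock genes that BMAL1 is known to activate, were lower in the libraries labelled Bmal1-/- (5.31 to 7.28 against 29.2 to 36.8 CPM, log2 fold change -2.51, adjusted p = 0.000456, and 7.80 to 8.83 against 25.3 to 39.3 CPM, log2 fold change -1.85, adjusted p = 0.00328), and both still passed with any library left out. Arntl no longer passed once any mouse labelled Bmal1-/- or WT replicate 4 was left out (adjusted p 0.052 to 0.102). WT replicate 3 held the highest summed level of 17 infiltrating macrophage markers (5815 CPM against 2957 to 3939 in the other WT libraries). It also held the lowest summed level of 6 neuronal genes (1566 CPM against 2724 to 3606). Neither sum was flagged by Dixon's test for an outlier among the WT values. P-values of the tests between genotypes weigh a difference against the spread between mice of the same genotype, estimated from these 7 mice. In tissue RNA, fewer cells of a type and less RNA per cell cannot be told apart.

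None of the 9 homeostatic genes passed the test between genotypes (0 of 9 at an adjusted p under 0.05 by edgeR's quasi-likelihood test, where 1.57% of all genes tested passed in either direction). The estimate was below 0, meaning lower in the libraries labelled Bmal1-/-, for 7 genes and above 0 for 2. Their median log2 fold change was -0.10, where the median of all genes tested was -0.01. The groups overlapped for all 9 genes, so 0 of 9 stood apart, against 26.9% of all genes tested. Fcrls and Olfml3 reached an unadjusted p under 0.05, both lower, which makes 2 of 9 against 12.2% of all genes tested that did so in the lower direction. They were also the only 2 of the 9 whose 95% interval did not hold 0.

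**Figure D1:**
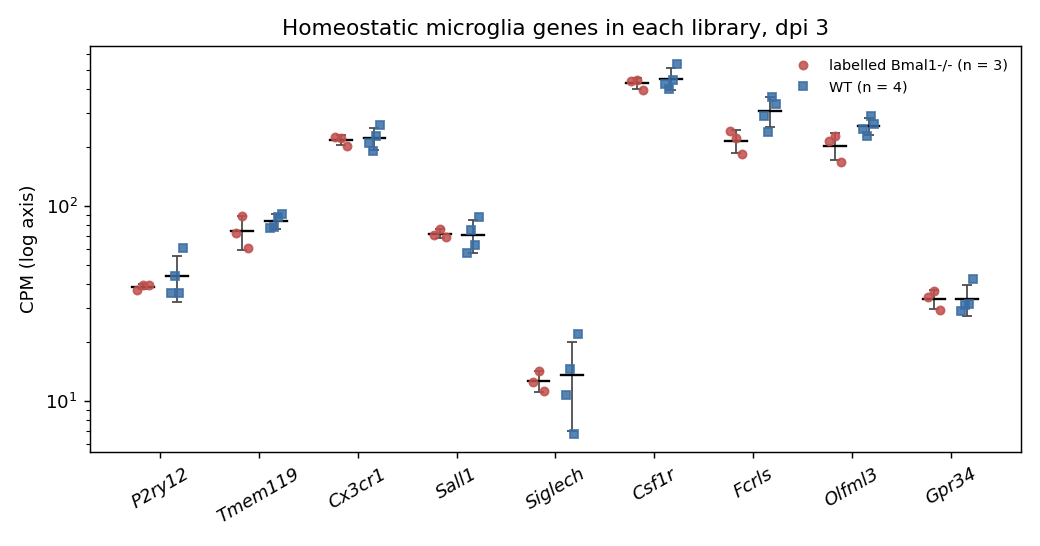
Level of each homeostatic microglia gene (CPM, log axis) in each library, with circles for the 3 libraries labelled Bmal1-/-, squares for the 4 WT libraries, bars for the mean and whiskers for the SD. The groups overlap for every gene, and the widest WT spread is that of Siglech, from 6.79 to 22.1 CPM.

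The receptors for growth factor and chemokine are taken first. Csf1r encodes the receptor whose signal microglia need to survive, and infiltrating macrophages carry it too. Csf1r measured 438, 445 and 395 CPM in mice labelled Bmal1-/- and 425, 400, 444 and 533 CPM in WT mice. WT replicate 4 lay above all others and Bmal1-/- replicate 3 just below them. The log2 fold change was -0.08 (standard error 0.11, 95% interval -0.35 to 0.19, adjusted p = 0.671). Counts of Csf1r may hold reads of Hmgxb3 on the opposite strand, since their exons share 873 bases and the strand setting of the counting is not given in the sources used here.

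Cx3cr1 encodes the fractalkine receptor, which lets microglia sense a chemokine that neurons make, and some monocytes carry it as well. Cx3cr1 measured 227, 223 and 203 CPM in mice labelled Bmal1-/- and 209, 191, 228 and 261 CPM in WT mice. The lowest and the highest values were both in WT. The log2 fold change was -0.03, and the 95% interval of -0.29 to 0.23 runs from 18.4% lower to 17.4% higher (adjusted p = 0.881). Its ligand Cx3cl1 measured 122, 122 and 151 CPM in mice labelled Bmal1-/- and 113, 120, 68.2 and 111 CPM in WT. These groups did not overlap, but the difference did not pass the test (log2 fold change 0.35, adjusted p = 0.317), and the WT library at 68.2 CPM was replicate 3, the one lowest in neuronal genes.

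P2ry12 and Gpr34 encode related receptors of the P2Y-like family. The first senses ADP and steers microglial processes to sites of damage, and the second binds a lysophospholipid. P2ry12 measured 37.3, 39.1 and 39.3 CPM in mice labelled Bmal1-/- and 35.6, 43.7, 35.7 and 60.7 CPM in WT mice. The 3 libraries labelled Bmal1-/- were close together (coefficient of variation 2.89%) and lay inside the WT range, which WT replicate 4 stretched (coefficient of variation 26.9%). The log2 fold change was -0.19 (standard error 0.19, 95% interval -0.63 to 0.25, adjusted p = 0.543). Without WT replicate 4 it was 0.01. Gpr34 measured 34.3, 36.6 and 29.3 CPM in mice labelled Bmal1-/- and 28.8, 31.0, 31.3 and 42.3 CPM in WT mice, with means of 33.4 CPM in both. Its log2 fold change was 0.00 (95% interval -0.34 to 0.35, adjusted p = 0.996).

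Tmem119 encodes a membrane protein used to mark resident microglia. Tmem119 measured 72.3, 89.4 and 60.9 CPM in mice labelled Bmal1-/- and 77.1, 78.2, 88.1 and 91.1 CPM in WT mice. Replicates 1 and 3 of the mice labelled Bmal1-/- lay below all WT mice, and replicate 2 among them. The log2 fold change was -0.17 (standard error 0.13, 95% interval -0.48 to 0.14, adjusted p = 0.438).

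Sall1 encodes a zinc finger transcription factor that keeps microglia in their resident identity, and is found outside microglia in neural cells. Sall1 measured 70.6, 76.5 and 69.3 CPM in mice labelled Bmal1-/- and 57.6, 75.4, 62.8 and 87.6 CPM in WT mice. The libraries labelled Bmal1-/- again lay inside the WT range. The log2 fold change was 0.03 (95% interval -0.31 to 0.36, adjusted p = 0.922).

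Siglech encodes a sialic acid binding lectin that in the cord marks microglia and elsewhere plasmacytoid dendritic cells. Siglech measured 12.6, 14.2 and 11.2 CPM in mice labelled Bmal1-/- and 10.7, 14.7, 6.79 and 22.1 CPM in WT mice. WT replicates 3 and 4 held the lowest and highest of the 7 values, which differed 3.25-fold. With that spread the 95% interval of the log2 fold change ran from -0.94 to 0.74 around -0.10 (adjusted p = 0.881), so that a fall by 47.7% or a rise by 66.7% would still lie within it. The intervals of P2ry12 and Siglech, whose promoter windows hold the E-box, both included 0, as did those of 5 other genes. Of 6 plasmacytoid dendritic markers, 4 were tested and summed with the others to 2.56 to 3.28 CPM in the libraries labelled Bmal1-/- and 3.60 to 5.14 CPM in WT.

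**Figure D2:**
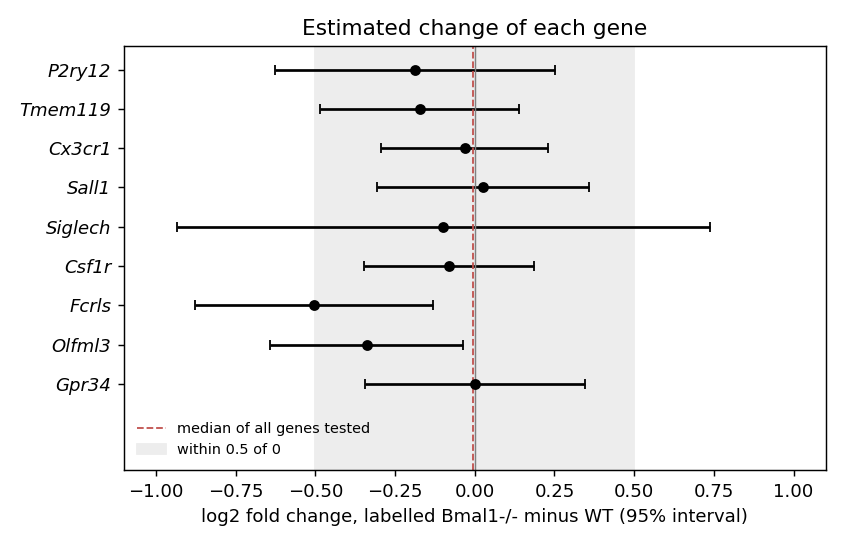
Log2 fold change of each gene (labelled Bmal1-/- minus WT) with its 95% interval from edgeR, the median of all genes tested as a dashed line and the range within 0.5 of 0 shaded. Only the intervals of Fcrls and Olfml3 lie wholly below 0, and that of Siglech is the widest.

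Fcrls and Olfml3 had the largest differences of the 9. Fcrls encodes a scavenger receptor related to Fc receptors, and Olfml3 a secreted protein of the olfactomedin family. Both lie on the minus strand of chromosome 3 in GRCm38, Fcrls (ENSMUSG00000015852) from 87250758 to 87263738 and Olfml3 (ENSMUSG00000027848) from 103722222 to 103738001, and neither gene overlaps another annotated one. Fcrls measured 242, 222 and 185 CPM in mice labelled Bmal1-/- and 291, 240, 364 and 332 CPM in WT mice. The groups met at Bmal1-/- replicate 1 and WT replicate 2, which were 241.5 and 240.0 CPM. Means were 216 ± 28.8 (SD, n = 3) against 307 ± 53.7 CPM (SD, n = 4), and the log2 fold change was -0.51 (standard error 0.16, 95% interval -0.88 to -0.13), or 29.5% lower. The unadjusted p was 0.0147 and the adjusted p 0.160. With DESeq2, the test the study itself used, in place of edgeR, Fcrls alone of the 9 passed, at an adjusted p of 0.0464. Of the 16369 genes DESeq2 tested, 5.63% passed in the lower direction and 3.5% in the higher.

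Olfml3 measured 215, 228 and 168 CPM in mice labelled Bmal1-/- and 248, 228, 290 and 264 CPM in WT mice. Bmal1-/- replicate 2 and WT replicate 2 met at 228.2 CPM. Means were 204 ± 32.0 (SD, n = 3) against 258 ± 26.2 CPM (SD, n = 4), and the log2 fold change was -0.34 (standard error 0.13, 95% interval -0.64 to -0.04, unadjusted p = 0.0328, adjusted p = 0.209). For both genes WT replicate 3 was the highest library and Bmal1-/- replicate 3 the lowest. WT replicate 3 was also the highest in the infiltrating macrophage and border macrophage lists (715 CPM summed over 10 border macrophage markers against 448 to 540 CPM in the other WT libraries and 386 to 448 CPM in those labelled Bmal1-/-). Without WT replicate 3 the log2 fold changes were -0.41 for Fcrls and -0.28 for Olfml3, with neither past the test (adjusted p = 0.146 and 0.221).

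The width of the intervals sets what could have been seen. For 5 of the 9 genes (Tmem119, Cx3cr1, Sall1, Csf1r and Gpr34) the 95% interval lay wholly within 0.5 of 0 on the log2 scale, which 50.6% of all genes tested also did. For these 5 a change beyond 1.41-fold in either direction lies outside the interval. P2ry12, Siglech, Fcrls and Olfml3 had intervals that reached past 0.5.

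The genes did not move across libraries as a single block. WT replicate 4 was the highest of the 7 libraries for 7 genes, all but Fcrls and Olfml3, for which WT replicate 3 was the highest. Bmal1-/- replicate 3 was the lowest for 4 genes (Tmem119, Csf1r, Fcrls and Olfml3), WT replicate 1 for 3, and WT replicates 2 and 3 for 1 each. WT replicate 3 thus held the highest Fcrls and the lowest Siglech of the whole set. On the log2 scale its Fcrls was 0.48 above and its Siglech 0.87 below the mean of the 7 libraries. Summed over the 9 genes, the libraries labelled Bmal1-/- held 1161 to 1374 CPM and the WT libraries 1303 to 1693 CPM, which overlap.

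**Figure D3:**
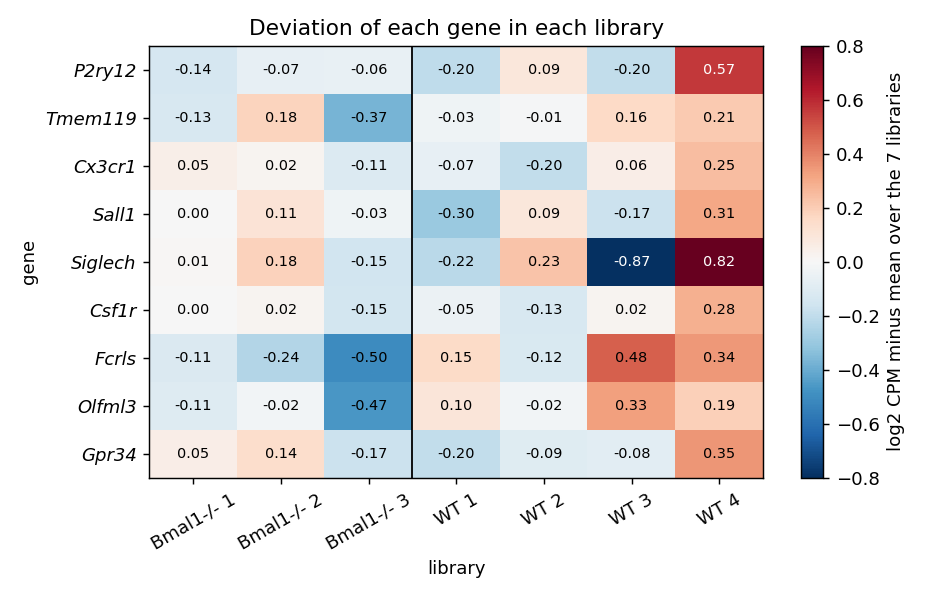
Deviation of each gene's log2 CPM from its mean over the 7 libraries, with genes in rows, libraries in columns, red above the mean and blue below, and a line between the genotypes. WT replicate 4 is above the mean for all 9 genes, and WT replicate 3 splits them, from -0.87 for Siglech to 0.48 for Fcrls.

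Per kilobase of exon, a scale on which levels of different genes can be set beside each other, Fcrls was the most abundant at 115 CPM per kb (mean of 7 libraries, range 79.2 to 156). Csf1r followed at 76.2, Cx3cr1 at 48.9, Olfml3 at 38.1 and Tmem119 at 34.4 CPM per kb. The surveillance receptor P2ry12 was lower at 16.3, with Gpr34 at 16.0, Sall1 at 13.6 and Siglech at 3.90 CPM per kb. Neighbours in this order overlapped in their ranges over the libraries except between Csf1r and Cx3cr1, between Tmem119 and P2ry12 and between Sall1 and Siglech. The order of Fcrls over Csf1r held in WT (131 ± 23.0 against 78.0 ± 9.98 CPM per kb, SD, n = 4) and in the libraries labelled Bmal1-/- (92.6 ± 12.4 against 73.8 ± 4.64 CPM per kb, SD, n = 3). Counting length by the longest transcript kept every rank and raised Csf1r to 93.6 CPM per kb. Shorter annotated transcripts were not tried, so the order rests on these lengths.

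Sexes were unequal between the groups, with a single male among the libraries labelled Bmal1-/- (replicate 3). Among females (2 against 2) the ratio of mean levels was above 1 for 6 of the 9 genes, with a median log2 difference of 0.08. Fcrls, Olfml3 and P2ry12 were the exceptions, at -0.19, -0.10 and -0.05. Among males (1 against 2, a value with no test) all 9 genes were lower in the library labelled Bmal1-/-, with a median log2 difference of -0.33. Fcrls differed by -0.91 and Olfml3 by -0.73 in males. Whether the sexes differed was not tested, since 1 male was labelled Bmal1-/-. An effect of sex and the single male labelled Bmal1-/- cannot be told apart.

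A further set of 18 genes used to mark microglia was examined beside the 9. Of them 17 were tested, 11 with estimates below 0 and 6 above, none passed, and their median log2 fold change was -0.16. DESeq2 called 2 of these genes lower and 2 higher, against 5.63% and 3.5% of all genes. Without WT replicate 3 edgeR called 1 lower, where 2.8% of all genes tested were called lower. Sparc, a matrix protein made by microglia and other glia, was at 3137 against 2529 CPM with no overlap between groups (log2 fold change 0.31, adjusted p = 0.200). The nearest to the threshold was Mef2c, a transcription factor shared by microglia, neurons and vessels. Mef2c measured 32.4, 30.8 and 31.6 CPM in mice labelled Bmal1-/- and 38.5, 39.5, 43.9 and 45.8 CPM in WT mice, without overlap (log2 fold change -0.41, standard error 0.08, adjusted p = 0.0579). Lag3, an inhibitory receptor found on microglia and lymphocytes, lay on the other side at 9.18, 13.4 and 13.3 CPM against 5.69, 5.96, 4.54 and 8.22 CPM (log2 fold change 0.97, adjusted p = 0.0843). These 2 genes were singled out after their values were seen.

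The ligands and signalling genes of resident microglia were fixed as a list of 21, all of them tested. Estimates were below 0 for 17 and above 0 for 4, none passed, and the median log2 fold change was -0.23. That median was -0.12 without WT replicate 3, with 1 gene called lower, and 0.04 in females only, also with 1 called lower (against 2.97% of all genes tested in females only). DESeq2 called 2 lower, against 5.63% of all genes. Il34, the tissue ligand of the CSF1 receptor made by neurons, came nearest. Il34 measured 9.51, 10.2 and 11.1 CPM in mice labelled Bmal1-/- and 15.1, 18.2, 12.5 and 15.4 CPM in WT mice, with no overlap (log2 fold change -0.58, standard error 0.14, adjusted p = 0.0883). The other ligand, Csf1, was at 169 against 187 CPM in the means (log2 fold change -0.14, adjusted p = 0.411). Along the TGF-β axis, Tgfb1 had a log2 fold change of -0.34, Nrros, whose protein anchors latent TGF-β on microglia, -0.35, the receptor genes Tgfbr1 and Tgfbr2 0.08 and -0.22, and the effectors Smad2 and Smad3 -0.21 and 0.14, with adjusted p from 0.182 (Smad2) to 0.561 (Tgfbr1). Entpd1 and Nt5e, the surface enzymes that turn ATP into adenosine, differed by -0.45 and -0.54 (adjusted p = 0.145 and 0.249). Among transcription factors of the lineage, Spi1, which encodes PU.1, differed by -0.22, Irf8 by -0.30 and Runx1 by -0.48, none past the test.

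Markers of other cells that share the tissue, and genes common to microglia and other myeloid cells, were set beside the homeostatic genes. Of 17 infiltrating macrophage genes 16 had estimates below 0, none passed, and their median log2 fold change was -0.58, or -0.25 without WT replicate 3 and -0.17 in females only. DESeq2 called 3 of them lower, against 5.63% of all genes. Fn1, fibronectin, made by macrophages and other cells of the wound, was at 739 against 1359 CPM in the means without overlap (log2 fold change -0.88, adjusted p = 0.0749). Lyz2, lysozyme of myeloid cells, was at 1486 against 1702 CPM with overlap (log2 fold change -0.20). Border macrophage genes had a median of -0.65 over 9 tested (-0.23 without WT replicate 3), and neutrophil genes -0.70 over 10 (-0.29 without it), with none passed in either list. In females only these medians were -0.10 and -0.11. Of the border macrophage genes DESeq2 called 2 lower, against 5.63% of all genes. For edgeR it was 1 lower without WT replicate 3 and 1 lower in females only, against 2.8% and 2.97% of all genes tested. Genes shared by microglia, macrophages and other myeloid cells, such as Ctss and the complement genes C1qa and C1qc, had estimates below 0 for 14 of 14. None of these genes passed, and their median was -0.23. Their median was -0.03 without WT replicate 3 and 0.18 in females only, where 1 was called higher against 1.84% of all genes tested. T and NK cell markers were too low to test, at 0.281 to 0.974 CPM summed over 7 genes.

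**Figure D4:**
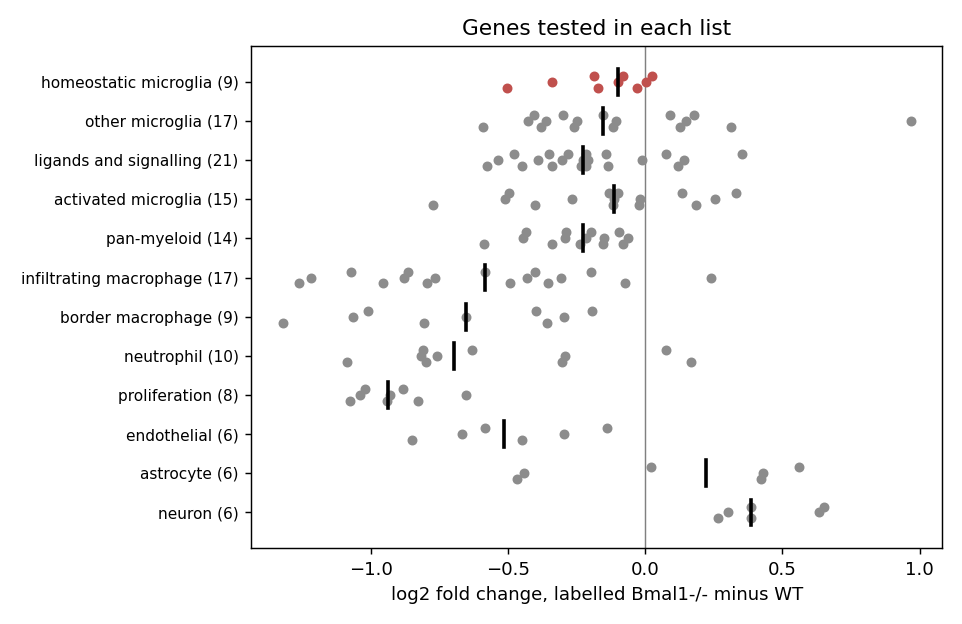
Log2 fold change (labelled Bmal1-/- minus WT) of every gene tested in each list, with the number tested in brackets, a bar at the list's median and the homeostatic genes in red. The homeostatic genes lie between -0.51 and 0.03, while the infiltrating macrophage list has its median at -0.58.

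Within a library the mean log2 CPM of the homeostatic genes exceeded that of the infiltrating macrophage genes by 1.67, 1.80 and 1.81 in the libraries labelled Bmal1-/-. In WT the difference was 1.29, 1.68, 0.56 and 1.87. WT replicate 3 gave the smallest difference, WT replicate 4 the largest, and the libraries labelled Bmal1-/- lay inside the WT range. Genes of activated microglia, known to rise as the homeostatic ones fall, had a median log2 fold change of -0.11 over 15 tested, and none passed. The groups stood apart for 3 of them, Ch25h and Ccl4 below WT and Apoe above, against 26.9% of all genes tested in either direction. Without WT replicate 3 the median was 0.05. In females only it was 0.24 with 3 genes called higher, against 1.84% of all genes tested. Spp1, osteopontin, was at 4902 against 5307 CPM, and Apoe, apolipoprotein E, at 4022 against 3202 CPM (adjusted p = 0.843 and 0.274).

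Larger medians than that of the homeostatic genes were found in other lists of the same libraries. Cell cycle genes had estimates below 0 for 8 of 8 and no overlap between groups for any, where 26.9% of all genes tested did not overlap. Their median was -0.94 and none passed the test (Mki67 at 103 against 163 CPM, adjusted p = 0.121, and Top2a at 65.3 against 125 CPM, adjusted p = 0.0744). DESeq2 called 7 of these 8 lower, against 5.63% of all genes. Of 6 endothelial genes, Cdh5, the cadherin of vessel junctions, was lower (47.3 against 85.3 CPM, log2 fold change -0.85, adjusted p = 0.0466), and it no longer passed once any library other than WT replicate 3 was left out (adjusted p 0.0165 without it, and 0.0532 to 0.216 without another). Without WT replicate 3, 4 of the cell cycle genes and 3 of the endothelial genes passed, all lower, against 2.8% of all genes tested. Still none of the 9 homeostatic genes passed there. DESeq2 also called 3 endothelial genes lower, against 5.63% of all genes. Neuronal genes were above 0 for 6 of 6 with a median of 0.38 and none passed, and astrocyte genes had a median of 0.22, with Gfap at 11642 against 8702 CPM (adjusted p = 0.270). Without WT replicate 3 these medians were 0.15 and 0.07, with 2 astrocyte genes called lower (against 2.8% of all genes tested). In females only they were -0.04 and 0.09, with 1 astrocyte gene called lower (against 2.97%). DESeq2 called 1 astrocyte gene lower and 1 higher, against 5.63% and 3.5% of all genes. Fibroblast and pericyte genes summed to 710, 2599 and 590 CPM in replicates 1, 2 and 3 labelled Bmal1-/- and to 1480 to 2269 CPM in WT. Their median was -0.47 with none past the test, and -1.84 without Bmal1-/- replicate 2, with 4 called lower against 0.838% of all genes tested. DESeq2 called 2 of them lower with all libraries, against 5.63% of all genes. Oligodendrocyte genes had a median of -0.01 with none past the test.

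Library scaling does not enter a ratio of 2 genes within a library, so each gene was also divided by Csf1r, a comparison added after the data were seen. The ratio of Fcrls to Csf1r was 0.552, 0.499 and 0.467 in the libraries labelled Bmal1-/- and 0.685, 0.599, 0.819 and 0.624 in WT. All 3 were below all 4, which was so for 1 of the 8 ratios, against 5.47% of the ratios of all other genes tested to Csf1r in that direction. The log2 difference was -0.42, with an exact two-sided permutation p of 0.0571, the smallest that 3 against 4 libraries allow, and 0.305 after Benjamini-Hochberg adjustment over the 8 ratios. Olfml3 to Csf1r was 0.476 ± 0.0466 (SD, n = 3) against 0.576 ± 0.0644 (SD, n = 4), a log2 difference of -0.27 (exact permutation p = 0.114, adjusted 0.305).

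Cx3cr1 to Csf1r was the steadiest ratio, 0.511 ± 0.00943 (SD, n = 3) against 0.493 ± 0.0147 (SD, n = 4), and its groups overlapped (exact permutation p = 0.114, adjusted 0.305). The remaining 5 ratios overlapped as well, with log2 differences from -0.11 for Tmem119 to 0.12 for Sall1 and exact permutation p from 0.343 to 0.971. Siglech to Csf1r was equal in the means, at 0.0297 in both groups, but ran from 0.0153 to 0.0415 in WT.

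**Figure D5:**
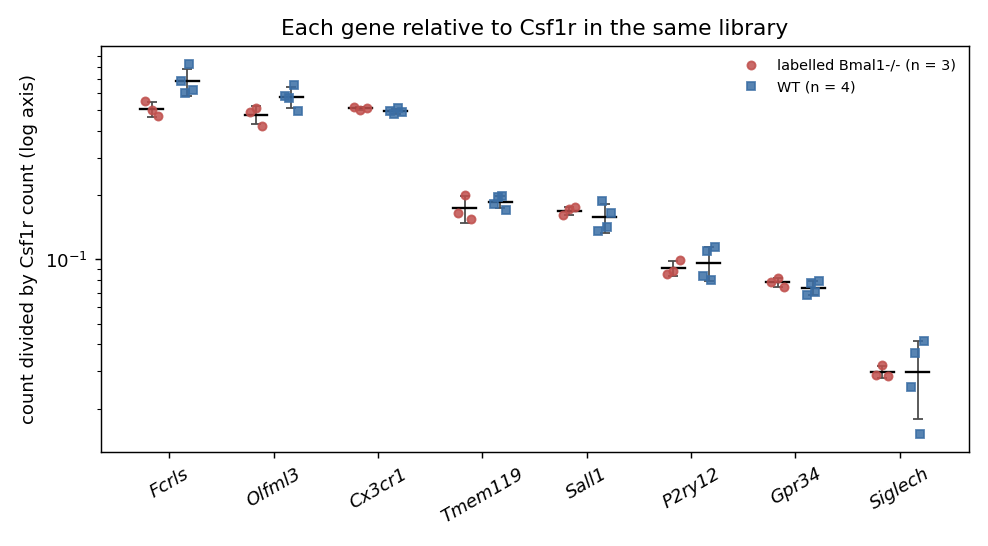
Count of each gene divided by the count of Csf1r in the same library (log axis), with circles for the 3 libraries labelled Bmal1-/-, squares for the 4 WT libraries, bars for the mean and whiskers for the SD. Only for Fcrls do all 3 circles lie below all 4 squares.

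The genes whose log2 CPM followed the mean profile of the 9 most closely over the 7 libraries, among those with a mean of at least 1 CPM, were Slc25a15, Acap2, H2-T24, Rab43, Wwc2, Usp48, Mxd1, Gm5431, Sgk2 and Nkain1, with Pearson r from 0.96 to 0.91. None of these 10 belongs to a marker list used here, and with levels centred within genotype only 1 of them, H2-T24, stayed among the 10 closest. The 9 themselves had r from 0.60 (Fcrls) to 0.96 (Csf1r) with a profile they form part of. The points share 7 libraries, of which WT replicate 4 is the highest for most of the 9, and the values describe these libraries.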

How the data were processed

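The deposited values are raw counts per gene from 7 libraries, which the authors made from stranded poly-A libraries aligned to GRCm38 with Tophat2 and counted with HTSeq 0.10.0. The annotation release and strand setting of the counting are not given in the sources used here. Every column matched a sample. Counts were filtered with filterByExpr, scaled by TMM and tested with edgeR 4.0.16 (quasi-likelihood, genotype only, limma 3.58.1, R 4.3.3) with Benjamini-Hochberg adjustment over all genes tested and a threshold of 0.05. The method was tested on simulated data with larger changes than those of the 9 homeostatic genes and less spread between libraries. That test does not show how well changes of their size would be detected. Ratios to Csf1r were compared with exact two-sided permutation tests (scipy 1.17.1). Symbols, positions and lengths came from GENCODE release M21. Genes named are the 9 homeostatic genes, the signalling list, from each other list those called and the 3 of highest mean CPM, the 10 of most similar profile, and Arntl. Some genes that meet this rule are not reported here. Mef2c, Lag3, Ch25h, Ccl4, Nr1d1 and Dbp were chosen after their values were seen. The genes and lists were chosen with earlier results of these data known. Clec7a, 1 of the activated microglia genes, had no row under its symbol.

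Alternatives replaced edgeR by DESeq2 1.42.0 or limma-voom, TMM by RLE or upper-quartile scaling, and the filter by none (1 count) or by a minimum mean count of 10. Further alternatives added sex as a term, used females only, blocked on the replicate number, dropped each library once, took length from the longest transcript and centred levels within genotype. The ratios to Csf1r, their repeats with each library left out and the values within males were added after seeing the data. Mice were the replicates, and with 7 libraries of 38529644 or more counts precision is set by the spread between mice rather than by counting error.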

Additional observations from a re-analysis of the deposited data

Results flagged for a closer look

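Among 34 sets of 4 WT values examined (each gene, its ratio to Csf1r and each list's summed level), 1 held a library far from the others by Dixon's test, and chance alone flags about 1 in 20 such sets. WT replicate 3 had the highest summed level of the 6 plasmacytoid dendritic markers, 5.14 CPM, where the other WT libraries held 3.60 to 3.70 CPM. Rpgrip1 and Cox6a2 made up much of that sum, at 1.82 and 2.02 CPM, and whether it follows the number of such cells was not tested. In the same library Siglech, which plasmacytoid dendritic cells also carry, was the lowest of the 7. None of the 9 homeostatic genes had a WT library flagged in this way, and the groups of 3 were not examined.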

How the results depend on the processing

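None of the 9 homeostatic genes was called under any alternative other than DESeq2, which called 1, Fcrls (log2 fold change -0.50). Their median log2 fold change ran from -0.20 to 0.01 with each library left out, where 0 were called each time. In females only it was 0.08, and it moved by less than the spread between replicates throughout. Fcrls and Olfml3 kept their direction in all 16 alternatives, and ran from -0.61 to -0.41 and -0.43 to -0.22 with a library left out. In females only both were smaller in size, at -0.19 and -0.10. The other 7 genes changed sign in 24 of their fits, all between -0.07 and 0.30. Females only gave 0.062 for Tmem119, 0.17 for Cx3cr1, 0.081 for Siglech and 0.10 for Csf1r. Upper-quartile normalization, which moved the median of all genes to -0.03, gave -0.0016 for Sall1 and -0.027 for Gpr34, and limma-voom gave 0.030 for Siglech. With a library left out the ranges were -0.28 to 0.0086 for P2ry12, -0.33 to -0.05 for Tmem119, -0.10 to 0.054 for Cx3cr1, -0.065 to 0.14 for Sall1, -0.32 to 0.24 for Siglech, -0.14 to 0.01 for Csf1r and -0.067 to 0.14 for Gpr34, and 0.71 to 0.82 for Arntl. The cause of these sign changes was not tested.

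The labels do not state that the replicate numbers pair the mice. Same-numbered libraries correlated at -0.17, 0.18 and -0.30 in their deviations from the group means. Only Bmal1-/- replicate 2 had its same-numbered WT library as the closest. Same-numbered libraries were of the same sex, so a block on the number also takes up sex. With the replicate block none of the 9 genes was called, as none of the 15743 was (0 lower and 0 higher, with 1066 and 524 at an unadjusted p under 0.05, against 144 lower and 103 higher without the block). Only WT had a replicate 4, so the block set WT replicate 4 aside, and its estimates are not independent of the fit without that library. The block gave 0.015 for P2ry12, 0.056 for Cx3cr1, 0.30 for Siglech and 0.0096 for Csf1r, and 0.77 for Arntl, whose call was lost. Over all genes DESeq2 called 922 lower and 573 higher, and leaving out WT replicate 3 gave 439 and 291.

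Ratios to Csf1r stayed within the spread between replicates when a library was left out, from -0.49 to -0.33 for Fcrls. The log2 difference changed sign for P2ry12 (-0.16 to 0.0056) and for Siglech (-0.19 to 0.29), and for no other ratio. Length by longest transcript gave 93.6 CPM per kb for Csf1r. Levels centred within genotype kept 1 of the 10 genes of most similar profile. With 3 and 4 mice, changes inside the 95% intervals could not be told from 0, and the interval was widest for Siglech, the least abundant of the 9.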
